A study of Williopsis jadinii with 8 samples.

Results

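A set of 99 transcripts of the industrial yeast Candida utilis (listed as Williopsis jadinii) stood far lower on the sugar xylose than on glucose, to about the same extent in the wild type and in a xylose-fermenting strain. The transcripts are known only by the identifiers of the array design (design IDs, such as cut01g0030251), and the 99 are drawn from all 8604 design IDs on the array. The rule that chose them used the signal of each design ID on a log2 scale relative to the 75th percentile of the array's yeast probes, so that a level above 0 is above that percentile. The members were thus chosen by measured values, namely the group means of these 8 arrays. A member had a probe well above background, by the scanner software's own flag, on all 3 wild-type glucose arrays. Its mean was at least 4-fold lower in the wild type on xylose (a log2 difference of -2 or less). Its mean in the fermenting strain on xylose lay within 1.5-fold of the wild type on xylose (a log2 difference between -0.585 and 0.585).

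Of 188 design IDs that met the first conditions, 99 met the last one, 69 were at least 1.5-fold higher and 20 at least 1.5-fold lower in the fermenting strain. Over the 7966 design IDs with a probe above background on at least 2 arrays, 82.1% lay within 1.5-fold between the strains, and all 99 members are among those 7966. Their differences between groups are therefore a description with errors, and no test supports them.

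Strain TMS174, named by the labels as a xylose fermenter and covered by a series title on recombinant Candida utilis, was sampled after 24 h on xylose (n = 2). The wild type (WT), strain NBRC0988, gave 3 cultures taken at 24 h on xylose and 3 taken at 10.5 h on glucose. All 8 cultures, which the design text calls independent experiments, were pre-grown on glucose and began at an OD600 of 0.1 in 50 ml of yeast extract and peptone medium at 30 °C with little air, with 50 g/L xylose or with glucose. The labels give the glucose as 20 g/L, but name the medium YPD5 beside YPX5 for xylose and YPD2 for the 20 g/L pre-culture, so the amount is uncertain. Sugar and sampling time changed together, the TMS174 arrays alone lay on a second slide, and the labels name neither the genes TMS174 carries nor whether it is 1 clone. One-colour arrays of total RNA give shares of the RNA pool, so a lower share and less RNA per cell cannot be told apart.

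Yeasts generally take glucose before other sugars. In Saccharomyces cerevisiae, glucose represses genes for the use of other carbon sources and raises others, among them genes of glucose transporters and glycolytic enzymes. Xylose, a pentose, is reduced to xylitol, oxidised to xylulose and phosphorylated before it enters the pentose phosphate pathway. Which of the 99 transcripts have roles in these processes is not known here. None of the 8604 design IDs matched the 6184 RefSeq genes of the Cybja1 assembly, but no probe sequence or position was used. The lack of matches thus does not show that the transcripts are absent from that assembly.

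The mean levels of the 99 transcripts in WT on glucose ran from -7.19 to 4.11, with more dim members than bright ones. Of the 99, 30 lay below -4.85, 34 between -4.85 and -1.77, 12 between -1.77 and -0.06, and 23 above -0.06. These limits split the 7966 design IDs into 4 equal parts by that level. By array, the members' medians were -5.88 and -5.84 on the TMS174 arrays. They were -6.14, -6.28 and -6.00 on the WT xylose arrays, and -3.60, -3.77 and -3.35 on the WT glucose arrays. The medians of the xylose arrays of both strains thus lay close together, more than 2 log2 units below every glucose array. Before background subtraction and scaling, the members' probes had median spot intensities of 126 and 126 units in TMS174, 113, 112 and 116 on WT xylose arrays and 572, 509 and 572 on WT glucose arrays, over a local background of 24 to 26 units.

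**Figure D1:**
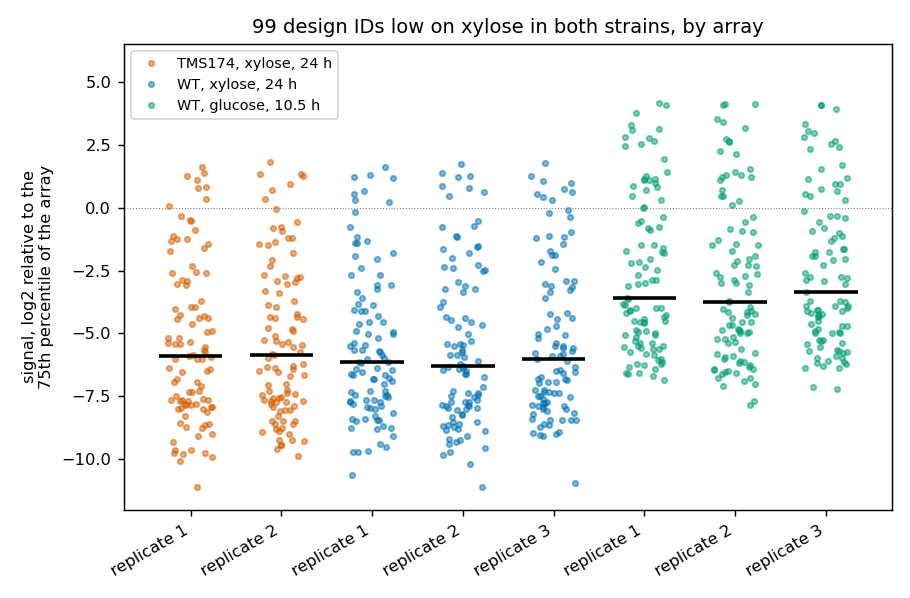
Signal of the 99 design IDs on each of the 8 arrays, in log2 units relative to the array's 75th percentile, with 1 point per design ID and a black bar at the median. The medians sit at -5.88 and -5.84 in TMS174, between -6.28 and -6.00 in WT on xylose and between -3.77 and -3.35 in WT on glucose.

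Most falls were close to the limit of the rule. Between the WT groups the members' log2 differences ran from -8.13 to -2.01, with a median of -2.44 (5.41-fold lower on xylose), where the median over all tested design IDs was 0.02. Among the 83 members above background on all WT xylose arrays, 48 fell by at most 2.5 log2 units, 11 by more than 3, 6 by more than 4 and 1 by more than 8. The size of the other 16 falls is known less well, since some or all of their WT xylose arrays were not above background. The median in TMS174 was also 2.44 log2 units below WT on glucose, with a range of -8.11 to -1.67. No array of WT on xylose reached the lowest WT glucose array for 97 of the 99, against 35.8% of all tested design IDs that were lower in this way. In TMS174 this held for 98, against 39.7%, and cut01g0020340 was the exception in both, with cut01g0060158 the other one in WT. In the limma fit over all design IDs (Benjamini-Hochberg adjusted p under 0.05), 96 members were lower on xylose in WT, where 34.1% of all tested design IDs were. Against WT on glucose, 96 were lower in TMS174, where the share of all was 33.2%. The rule fixed these counts, so nothing is read from them.

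**Figure D2:**
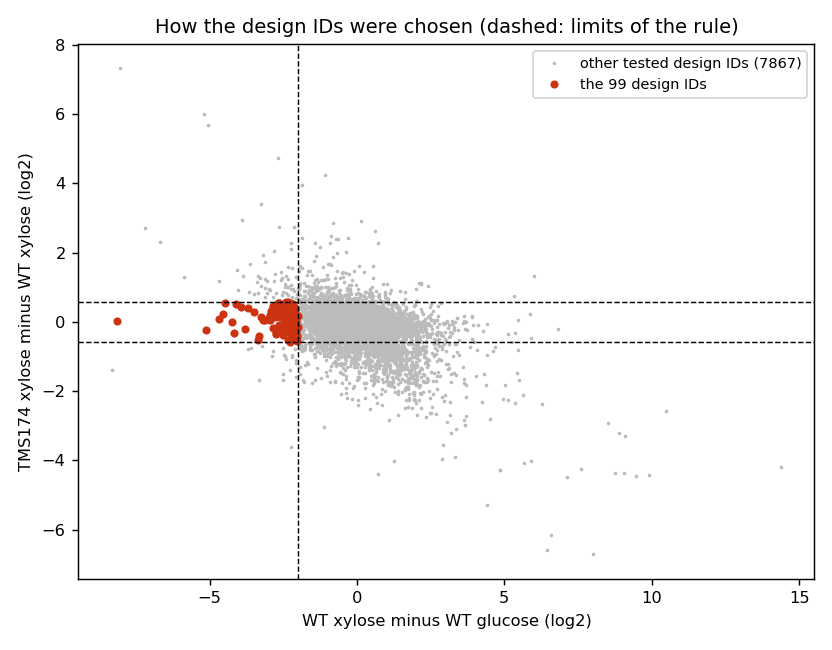
Log2 difference between the WT groups (horizontal) and between TMS174 and WT on xylose (vertical) for the 7966 tested design IDs, with the 99 members in red and the limits of the rule dashed. The members run from -8.13 to -2.01 on the horizontal axis, and 1 stands far to the left of the rest; both axes use the WT xylose arrays, so the slope of the grey cloud is in part built in.

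The largest fall belonged to cut01g0030251. Its level was -5.53 and -5.42 in TMS174, -5.36, -5.74 and -5.39 in WT on xylose, and 2.65, 2.73 and 2.53 in WT on glucose. It was one of the 10 brightest members on glucose. On xylose its means lay above the members' medians of -5.80 in TMS174 and -6.16 in WT, with the values of both xylose groups intermingled. Before scaling, its background-subtracted signal was 76.8 and 78.2 in TMS174, 93.5, 74.3 and 98.7 in WT on xylose, and 18835, 21086 and 17062 in WT on glucose. It was 280.3-fold lower on xylose in WT (log2 difference -8.13, SE 0.12) and differed by 0.02 between the strains (SE 0.13). Its 2 probes gave differences of -8.29 and -7.97 between the WT groups, so the fall did not rest on a single probe.

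The next largest falls varied in how well the replicates placed them. The level of cut01g0030246 was -6.02 and -5.81 in TMS174, -6.16, -6.28 and -6.00 in WT on xylose, and -1.5, -1.5 and -1.75 in WT on glucose, a difference of -4.57 between the WT groups (SE 0.11). The level of cut01g0050668 was -6.41 and -6.49 in TMS174, -6.64, -6.63 and -6.08 in WT on xylose, and -2.16, -2.71 and -1.76 in WT on glucose, a difference of -4.24 (SE 0.26). The first was tight within all groups, while the glucose cultures of the second spread over nearly 1 log2 unit. By contrast, cut01g0060002 had -5.18 and -6.39 in TMS174, -5.65, -5.28 and -5.76 in WT on xylose, and 0.97, -2.11 and -0.15 in WT on glucose. Its difference of -5.14 between the WT groups carried an SE of 0.74, because the 3 glucose cultures spread over 3 log2 units. Likewise cut01g0011262 differed by -4.69 (SE 0.87), with -4.63 and -4.37 in TMS174, -6.39, -3.96 and -3.34 in WT on xylose and 0.30, 1.20 and -1.11 in WT on glucose. Falls of similar size were those of cut01g0030316 (-4.11, SE 0.34) and cut01g0020314 (-3.94, SE 0.18). By their fitted values cut01g0011115, cut01g0011116 and cut01g0040646 would also be among the 10 largest, but they are dim on xylose and are given as bounds, and the bound of cut01g0040646 gives it no such place.

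The brightest members fell to about the same extent as the others under the 75th percentile scaling. On glucose, 22 members lay above the array's 75th percentile, and 8 of them still did so in TMS174 and 8 in WT on xylose. The brightest was cut01g0040702, at 1.39 and 1.32 in TMS174, 1.23, 1.24 and 1.04 in WT on xylose, and 4.17, 4.10 and 4.06 in WT on glucose (difference between the WT groups -2.94, SE 0.08). It remained above the 75th percentile on xylose although it was 7.68-fold lower there. Next came cut01g3590001, cut01g0001397, cut01g0040009, cut01g0030048, cut01g0040383 and cut01g0050729, whose differences between the WT groups lay between -2.96 and -2.01. Among the 10 brightest, the largest fall after that of cut01g0030251 was in cut01g0020314, at -1.14 and -0.79 in TMS174, -1.40, -1.65 and -1.13 in WT on xylose, and 2.75, 2.26 and 2.64 in WT on glucose. The median difference between the WT groups was -2.43 in the 22 bright members and -2.44 in the 77 others, with median SEs of 0.13 and 0.20. These medians were -2.35 and -1.57 under normexp background correction and -2.45 and -2.69 under quantile normalization, so how the groups compare depends on the processing.

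The 2 brightest members had almost the same values on every array. The levels of cut01g0040702 and cut01g3590001 differed by 0.06 log2 units on average and by at most 0.14 on any of the 8 arrays, the closest match among all pairs of members. Whether their probes can read the same RNA could not be checked without probe sequences, so they may not be separate measurements.

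**Figure D3:**
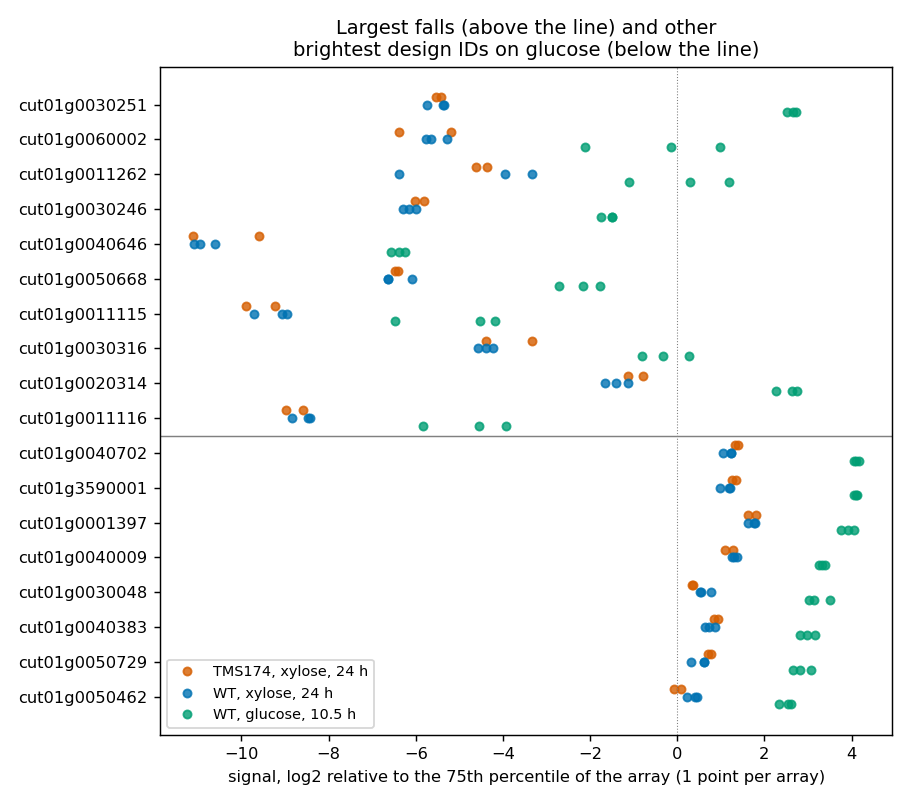
Level on each array (1 point per array, log2 relative to the 75th percentile) of the 10 members with the largest fitted fall in WT and, below the line, the 8 other members among the 10 brightest on WT glucose. Glucose points lie right of both xylose groups in each case, and cut01g0060002, cut01g0011262 and cut01g0011115 show the widest glucose spread; the xylose points of cut01g0040646 are not above background.

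Consecutive design numbers recurred among the members. The 3 digits after the prefix name a block of the design and the last 4 count within it; whether neighbouring numbers are neighbouring genes is not stated in the files. In 9 cases 2 members had consecutive numbers, which takes in 18 of the 99, and no run was longer. How many such cases any 99 design IDs would give was not worked out, so nothing is read from this count. The pairs begin at cut01g0000969, cut01g0001397, cut01g0011115, cut01g0030245, cut01g0030250, cut01g0030495, cut01g0030638, cut01g0050035 and cut01g0060157. Members of a pair did not always fall to the same extent: cut01g0030250 differed by -2.85 and its neighbour cut01g0030251 by -8.13.

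The stretch around the largest fall held more than these. Its ends were drawn at design IDs that were low on xylose, so nothing is read from its count of members. Among all 7966 tested design IDs, 99 were members. From cut01g0030244 to cut01g0030252, 4 of 9 design IDs were members and 2 others, cut01g0030244 and cut01g0030252, were low on xylose as well. The first of these missed the limit on the fall, with a difference of -1.98 (SE 0.19). The second had a fitted difference of -8.32 (SE 0.21), but only 1 of 3 of these arrays and 0 of 2 TMS174 arrays were above background there, and it lay outside the limit between the strains. Interspersed with them, cut01g0030247 and cut01g0030249 were too dim to test, and cut01g0030248 differed by -0.40. Just before this stretch, cut01g0030240 and cut01g0030241 had differences of -2.15 and -1.87 between the WT groups, but stood 2.75 (SE 0.15) and 2.42 (SE 0.09) log2 units above the WT xylose mean in TMS174.

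**Figure D4:**
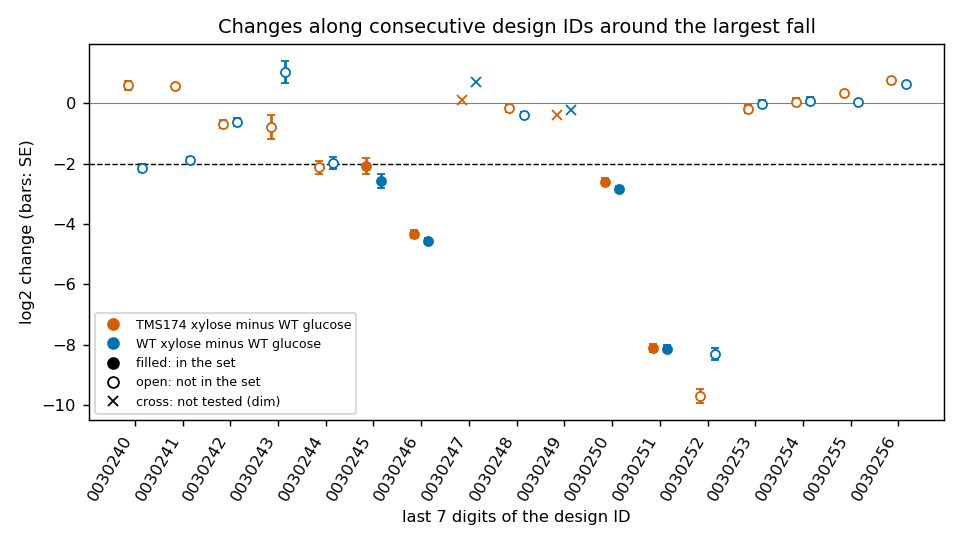
Log2 difference from WT on glucose along 17 consecutive design IDs (bars, SE of the limma fit), for TMS174 on xylose (orange) and WT on xylose (blue). Filled points are members, whose 2 series the rule keeps within 1.5-fold of each other. The series part at cut01g0030240 and cut01g0030241, and also at cut01g0030243 and cut01g0030252, where no TMS174 array was above background. At cut01g0030243 no WT glucose array was above background either, so both its differences are poorly known.

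The neighbours of members are described next. The rule also classed them as non-members from the same values, so a neighbour with a fall of 4-fold or more is counted here only if it failed another condition. Of 149 tested design IDs that are not members but directly precede or follow one, 30 (20.1%) were at least 2-fold lower on xylose in WT, where the share of all tested design IDs was 11.9%. Only 11 of the 149 (7.38%) were at least 2-fold higher, where the share of all was 14.9%. The neighbours' median difference was -0.14, so most did not follow the members. Only cut01g0030252, cut01g0060003 and cut01g3600001 were at least 4-fold lower. Across all 7128 pairs of consecutive tested design IDs, the differences between the WT groups correlated at r = 0.25, a description over pairs that share arrays and, possibly, probe placement.

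The members varied more among replicate cultures than the array as a whole. Their median SD was 0.11 log2 units in TMS174, 0.25 in WT on xylose and 0.22 in WT on glucose, against 0.07, 0.11 and 0.15 over all tested design IDs. The members were also dimmer on WT glucose arrays (median -3.66, against -1.77) and more often had 1 probe (46.5%, against 19.0%). Spread was not compared at a matched level or number of probes, so it is not shown to be a trait of the set. The 3 widest spreads belonged to cut01g0020340, cut01g0060157 and cut01g0060158, the members that limma did not call in either contrast with glucose. The level of cut01g0020340 was -2.56 and -2.72 in TMS174, -3.83, -2.34 and -1.90 in WT on xylose, and 1.15, -3.0 and 0.64 in WT on glucose. Its second glucose culture lay at the xylose level, so the groups overlapped and its fall rests on glucose replicates 1 and 3. The level of cut01g0060157 was -1.24 and -1.47 in TMS174, -4.05, -1.13 and 0.30 in WT on xylose, and 0.81, 1.30 and 0.32 in WT on glucose. Its consecutive number cut01g0060158 followed it array by array, with -2.60 and -2.76 in TMS174, -5.19, -2.52 and -0.96 in WT on xylose, and -0.59, 0.10 and -1.03 in WT on glucose.

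A single glucose culture was the low one for several members. WT glucose replicate 2 was at least 1 log2 unit below both other glucose arrays for 9 members (9.09%), among them cut01g0011115, cut01g0011116, cut01g0020340, cut01g0030567, cut01g0060002 and cut01g0060172, where the share of all tested design IDs was 2.30%. WT glucose replicate 1 was low in this way for 0 members (0.138% of all tested) and replicate 3 for 2 (2.02%, against 0.477%). Without replicate 2 of WT on glucose, 134 design IDs met the rule, 98 of them among the 99. WT xylose replicate 1 was the low array for 4 members (4.04%), where the share of all tested design IDs was 0.552%. WT xylose replicate 3 was the high one for 4 members, and for 43 of all 7966 tested design IDs. Both counts of members include cut01g0060157 and cut01g0060158.

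Within the limit of 1.5-fold, the members' signal was on balance slightly higher in TMS174 than in WT on xylose under this scaling, and lower under spike-in scaling, where the median difference was -0.43. Choosing members for low WT xylose means by itself raises their differences from TMS174, which share those arrays, so nothing is read from the balance. The median difference between the strains was 0.13 log2 units (1.09-fold), with 64 members above 0 and 35 below, where 44.3% of all tested design IDs were above 0 and their median was -0.04. The TMS174 arrays lay wholly above the WT xylose arrays for 24 members and wholly below for 8. These 32 of 99 compare with 59.9% of all tested design IDs that did not overlap in either direction. This contrast entered the rule as well, and the limit of the rule keeps such counts low.

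The highest differences that the limit allowed were those of cut01g0030567 (0.57, SE 0.64), cut01g0000970 (0.56, SE 0.10) and cut01g0020994 (0.55, SE 0.12). The level of cut01g0000970 was -5.87 and -5.97 in TMS174, -6.38, -6.50 and -6.55 in WT on xylose, and -4.0, -4.27 and -4.10 in WT on glucose, so that it lay apart from both WT groups while much closer to WT on xylose. At the other end cut01g0000252 had a difference of -0.53 (SE 0.26). The fitted values of cut01g0060172 (-0.58, SE 0.78) and cut01g0000410 (-0.56, SE 0.53) were lower, but each had 1 of 2 TMS174 arrays above background, and cut01g0060172 1 of 3 WT xylose arrays, so their order is not known. In the limma fit, 6 members differed between the strains, all higher in TMS174 (cut01g0000911, cut01g0000970, cut01g0001440, cut01g0020994, cut01g0030935 and cut01g3190001), where 17.8% of all tested design IDs were called in either direction. No member was called lower in TMS174; at an unadjusted p under 0.05, 10 were higher and 5 lower. Under spike-in scaling the differences of the 6 called members lay between -0.15 and 0.01 log2 units, so their rise depends on the scaling. The count of 6 changed when single arrays were left out. Leaving out TMS174 replicate 1 left 1 member called, and leaving out TMS174 replicate 2 left 0 (7 higher and 3 lower at an unadjusted p under 0.05). In these fits the lone TMS174 array is assumed to vary like the WT groups, and 4.44% and 4.07% of all tested design IDs were called. It was 3 when the WT xylose culture numbered 2 was dropped and 2 when the one numbered 3 was, where 15.1% and 7.32% of all tested design IDs were called.

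With 2 TMS174 arrays, closeness to the wild type was known only roughly for single transcripts. The 95% interval of the difference between the strains had a median half-width of 0.50 log2 units. It lay wholly within 1.5-fold for 25 members and wholly within 2-fold for 71, and reached past 1.5-fold for 74. For the bright cut01g0040702 it was 0.18 ± 0.21 (half-width), and for cut01g0030251 it was 0.02 ± 0.31. For cut01g0060002 it was -0.22 ± 1.95 and for cut01g0011262 0.07 ± 2.30, so these 2 members could differ several-fold between the strains.

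The members nearest to the limits had close counterparts outside. Just inside the limit on the fall were cut01g0040009 (-2.01), cut01g0010968 (-2.02) and cut01g0000410 (-2.02), and just outside it were cut01g0000637, cut01g0021097 and cut01g0010925 (each just short of 4-fold). Just past the limit between the strains lay cut01g3600001 (0.59), cut01g0010030 (0.60) and cut01g0010031 (0.60) on the high side. On the low side the nearest by fitted value were cut01g0100008 (-0.69), cut01g0050450 (-0.76) and cut01g0000177 (-0.75, place not known, with 0 of 2 TMS174 arrays above background). No gap in the values separates the set from these on the fall or on the high side.

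Part of the set lay near the background. All 8 arrays were above background for 82 members. In WT on xylose 83 members were above background on 3 arrays, 6 on 2, 7 on 1 and 3 on none, and in TMS174 84 were on both arrays, 8 on 1 and 7 on none. The 3 members not well above background on any xylose array of either strain were cut01g0030221, cut01g0040646 and cut01g0050630, so their likeness between the strains has no measured value. Against the lowest signal above background on each array, or their own signal where higher, they were at least 5.39-fold, 6.06-fold and 6.67-fold lower in WT on xylose than in WT on glucose. These bounds hold under the scaling used here only and leave out the error of the means. The consecutive pair cut01g0011115 and cut01g0011116 was at least 14.4-fold and 14.0-fold lower in WT on xylose, with 2 and 1 of 3 arrays above background. For cut01g0010425 and cut01g3600002 the bound in WT on xylose was 3.13-fold and 3.81-fold, under the 4-fold of the rule.

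The number of probes and the probe series differed between the members and the array. The array carries a main series of probes, mostly 2 per design ID, and a second series with 1 probe per design ID, told apart by the ending of the probe names. The second series held 45 of the 99 members (45.5%), where it held 18.1% of the tested design IDs. At least 4-fold falls in WT made up 5.74% of the second series and 1.66% of the main one, against 2.4% of all tested design IDs. Its transcripts were dimmer, with a median of -5.77 on WT glucose arrays against -1.36 in the main series. The median fall of members was -2.46 in the second series and -2.43 in the main one, and their median difference between the strains was 0.04 and 0.16. The part of the series in the make-up of the set was not tested. The 69 design IDs higher in TMS174 included 25 of the second series and the 20 lower ones 11.

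Where a member had 2 probes, these mostly gave the same fall. Both probes of 46 of the 53 such members were at least 4-fold lower by themselves, and the median gap between probes was 0.15 log2 units. The widest gaps were in cut01g0020113 (-3.52 and -1.01), cut01g0050431 (-3.34 and -0.86) and cut01g0050687 (-3.61 and -1.28). In each of these the dimmer probe fell further, and the brighter one by itself missed the limit of 4-fold.

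The scaling of the arrays bears on which transcripts the rule picks. Scaling to 6 spike-in probes put the median of all tested design IDs at 0.42 between the WT groups and at -0.59 between the strains. The members' medians became -2.03 and -0.43, and 56 design IDs met the rule, 38 of them among the 99. This scaling assumes an equal amount of spike-in per sample, which the labels do not state. Under quantile normalization the members' median between the strains was 0.38, with 0.11 in the bright members and 0.50 in the others, and 69 of the 99 met the rule. Normexp background correction, here with a constant of 50 units added to every signal, gave a median fall of -1.77 and left 41 of the 99 within the rule. All 22 bright members remained at least 4-fold lower under it, and 20 of the 77 others. Under spike-in scaling 12 of the 22 bright members and 43 of the 77 others did so. Against WT on glucose, TMS174 was at least 2-fold lower for all 99 members under the 75th percentile, quantile, median and spike-in scalings, and for 77 under normexp.

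**Figure D5:**
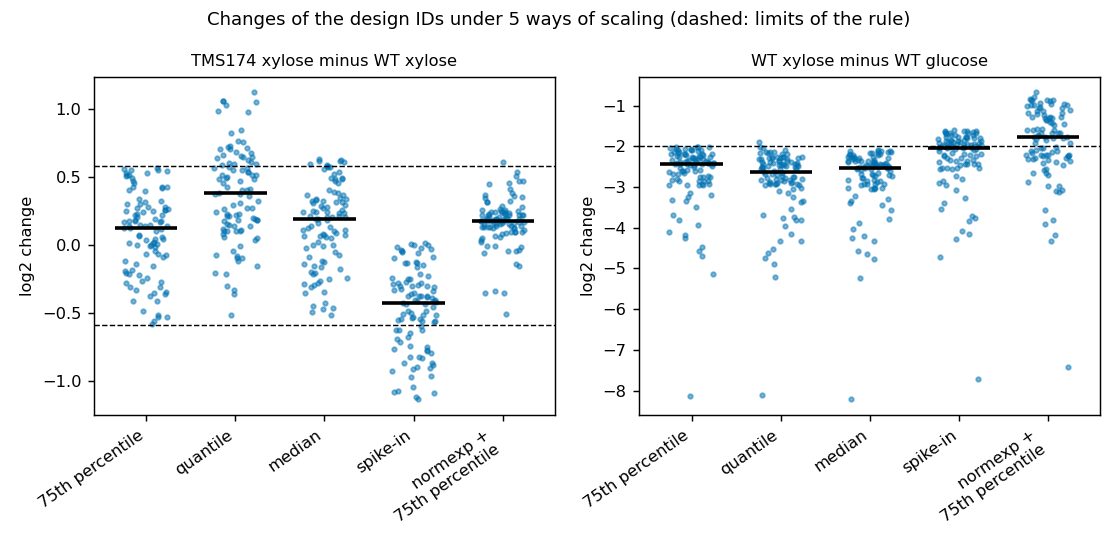
Log2 differences of the 99 design IDs between TMS174 and WT on xylose (left) and between the WT groups (right) under 5 ways of scaling, with bars at the medians and the limits of the rule dashed. The left medians are 0.13, 0.38, 0.19, -0.43 and 0.18, and the right ones -2.44, -2.63, -2.52, -2.03 and -1.77.

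Members were spread over the design. Blocks 000 to 007, with 7248 of the tested design IDs, held 90 members, and these made up between 0.766% (block 007) and 1.77% (block 006) of a block's tested design IDs. The other 9 members came from the small blocks, where they were 1.25%.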

How the data were processed

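Per the file headers, each deposited scanner file holds a processed signal intensity per spot, background-subtracted and not normalized between the 8 arrays, with median spot and local background intensities and flags, from Agilent Feature Extraction 9.5.3.1. A deposited table holds, judged from its values, the same signal as a ratio to a constant of each array. From the deposited intensity, signals were scaled to the 75th percentile of the 15208 non-control probes (2958 to 4130 units), taken to log2 and averaged per design ID. No spot was saturated, and 87.8% to 95.2% of probes were above background. SEs, intervals and calls come from limma 3.58.1 in R 4.3.3 (group means over 8 arrays, 5 residual degrees of freedom, eBayes, Benjamini-Hochberg over 7966 design IDs). The fit was checked on simulated data with the same spread for every design ID, so that check does not cover unequal spreads like those seen here. Each p-value rests on the variation among these cultures alone. Members, alternatives and the rule for named design IDs (largest falls, brightest, limits, runs, spread, probe gaps) were chosen with earlier results of these data known. The members low in WT glucose replicate 2, the probe series, the closest pair and the stretch around cut01g0030251 were singled out after their values were seen.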

Additional observations from a re-analysis of the deposited data

How the results depend on the processing

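The count of design IDs that met the rule was 99, and it stayed between 87 and 110 under quantile normalization, median scaling, the deposited ratio table, outlier spots left out, kept probes only and each probe by itself. It was 56 under spike-in scaling, 48 under normexp (offset 50), 82 with all 8 arrays above background and 91 to 134 when each array was left out. The median change between the WT groups was -2.03 under spike-in scaling and -1.77 under normexp, and -2.60 to -2.40 with arrays left out. That between the strains was 0.38 under quantile normalization and -0.43 under spike-in scaling, where its sign turned, and 0.08 to 0.17 with arrays left out. That between TMS174 and WT on glucose was -1.57 under normexp. Under spike-in scaling the members' differences between the strains ran from -1.13 to 0.01. Members called between the strains numbered 15 under quantile normalization (15.7% of all tested design IDs called), 22 under spike-in scaling (55.9%), 10 with array weights (34.6%) and 0 to 8 with arrays left out (4.07% to 25.9%). Same-numbered replicates did not deviate together in all pairs (r = -0.145 to 0.168), nor did each glucose array correlate best with its own number. Deviations from means of 2 or 3 arrays are tied to each other, so these values cannot decide whether the numbers pair samples. With the replicate number as a block, 94 members were lower in TMS174 and 96 in WT on xylose than in WT on glucose, and 4 differed between the strains; over all design IDs the strain calls numbered 755, against 1416 without it. Members lower on xylose numbered 94 to 99 of 99 in each strain under the alternatives that keep all arrays and design IDs, and 79 of 82 among those above background on all 8 arrays. The cause of these changes was not tested. Normexp as planned here used median signals. Dim members, whose signals lie near the local background, limit how well a fall can be sized.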
